A study of Homo sapiens with 22 samples.

Results

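The nuclear receptors of Caco-2 cells were followed across 4 exposures. The list held 41 receptor genes, named by their membership of the superfamily and not by their values, out of 61487 genes counted. A gene was taken as expressed where its count was above 5 in 3 or more samples, which 36 of the 41 receptors met. Caco-2 is a human colorectal adenocarcinoma line, here undifferentiated and with a wildtype label, and stands in for intestinal epithelial cells. Cells were grown for 48 h and then kept for 48 h in medium of which 10% was replaced by PBS (vehicle, n = 4), by faecal water (FW) of control mice (FWctl, n = 7), by FW that those mice gave while on antibiotics (FWatb, n = 7), or by the cocktail itself (ATB, n = 4). FW is the supernatant of mouse faeces homogenised in PBS. The cocktail contained neomycin at 1 g/L, vancomycin at 0.5 g/L and meropenem at 0.25 g/L. All groups also had foetal bovine serum at 10%, non-essential amino acids at 1% and an antibiotic-antimycotic mix at 1% in the medium, so that no group was free of antibiotics, serum hormones or serum lipids.

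Nuclear receptors are transcription factors that bind a short core site of DNA, alone or in pairs, and change the transcription of their targets when a ligand fits into their pocket. Steroid receptors act mostly as homodimers, whereas the receptors of thyroid hormone, retinoids, vitamin D, fatty acids, oxysterols and xenobiotics bind DNA together with a retinoid X receptor (RXR). Other members have no established hormone and act constitutively or through their own level. In the intestine they are known to control lipid absorption and oxidation, vitamin A and D handling, and the enzymes and transporters that handle drugs and bile acids.

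Total counts ranged from 7118302 to 18726967 per library. FWctl replicate 1 stood apart from the other FWctl libraries, at 7.35 on the first principal component against 27.2 to 31.1 for the other 6. It is kept out of the FWctl group values throughout, leaving 21 samples in the tests. Its own level is given for part of the receptors. The labels name no batch, but ribosomal DNA transcripts took 0.0163% to 0.0805% of the counts in 8 libraries and 1.87% to 8.19% in the other 14. The latter held every FWatb library, 2 PBS libraries, 1 ATB library and 4 of the 6 tested FWctl libraries. The tissue label was checked on marker genes. The epithelial markers EPCAM, CDH1, KRT8, KRT18, VIL1 and CDX2 had counts of at least 575 in every library. KRT20 was low, at 0 to 36 counts, and CDX1 was near 0, at 0 to 4 counts. Of the markers of other cell types, the leukocyte genes PTPRC and CD3E had at most 2 and 16 counts per library and were at 0 in 16 and 3 of the 22 libraries. The fibroblast gene COL1A1 had 4 to 141 counts and the endothelial gene PECAM1 15 to 118, with no library at 0. Labels do not say that samples of a group came from separate cultures, so p-values measure the spread between these samples. In bulk RNA, fewer cells of a type and less RNA per cell cannot be told apart.

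Of the 36 expressed receptors, 31 had a count above 5 in all 21 samples. NR4A2 exceeded it in 16, ESR2 in 19, NR1I2 in 9, NR4A3 in 6 and ESR1 in 3 samples. The 5 receptors outside the filter were the third RXR, RXRG (1 count in all libraries together), the photoreceptor factor NR2E3 (14 counts), the progesterone receptor PGR (19 counts), the stem cell receptor ESRRB (14 counts) and NR0B1, an inhibitor of steroidogenic transcription. NR0B1 had 0 counts, which allows up to 0.0107 CPM (a level scaled to library size, described next) over the 22 libraries together, for counting error only. These 5 receptors entered no test.

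Levels are CPM, counts relative to the library total, after TMM normalisation, which adjusts that total for composition. Values with ± are mean and SD over 4 PBS, 6 FWctl, 7 FWatb and 4 ATB samples, and those of changes are log2 fold change and standard error (SE). Between genes, levels were compared per kilobase of exon. Under PBS the order was led by HNF4A, the hepatocyte nuclear factor that drives enterocyte and hepatocyte genes, at 34.0 CPM per kb. It was followed by the COUP-TF-related repressor NR2F6 at 22.8, by NR5A2, a receptor of intestinal crypts, liver and pancreas, at 13.4 and by the oestrogen-related receptor ESRRA, a regulator of mitochondrial genes, at 12.6 CPM per kb. NR5A2 and ESRRA had overlapping sample values. So had the neighbours PPARA, NR2F2, NR1H3 and THRB, at 6.91 to 6.51 CPM per kb, and those from NR2C1 at 4.88 to NR2C2 at 4.30. The vitamin D receptor VDR was at 2.38, the constitutive androstane receptor NR1I3 at 1.02 and the pregnane X receptor NR1I2 at 0.0841 CPM per kb. Beside RXRA at 4.61 and RXRB at 4.46, RXRG was near 0.

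**Figure D1:**
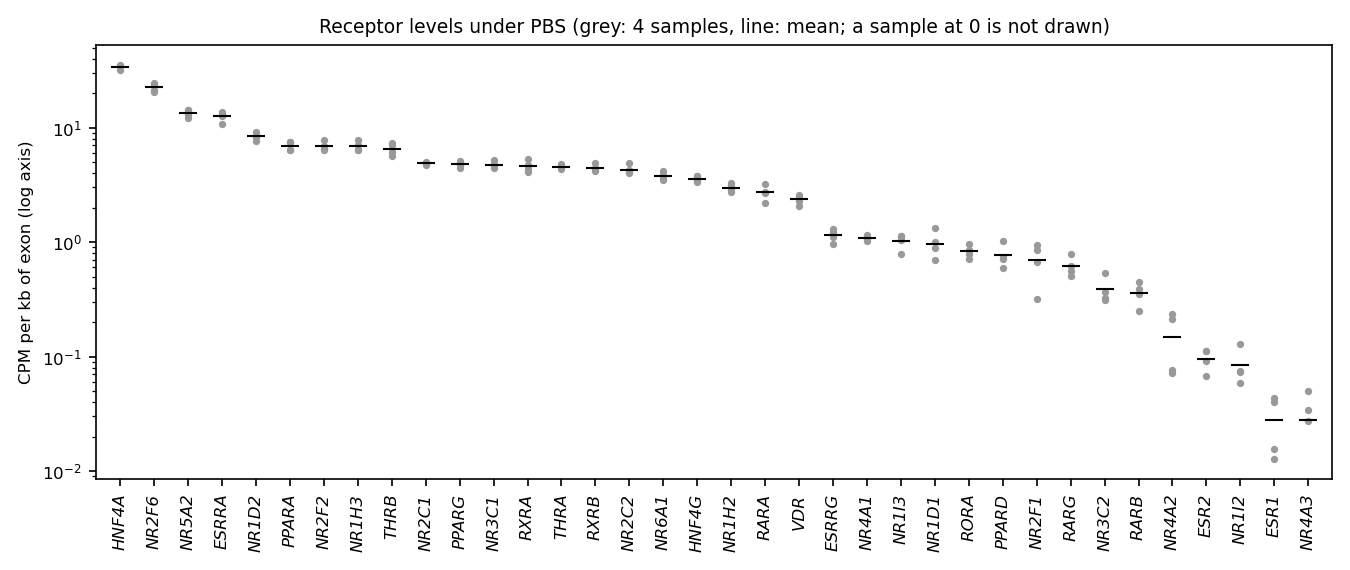
Levels of the 36 expressed receptors under PBS, as CPM per kb of exon on a log axis, with the 4 PBS samples as grey points and their mean as a line (samples at 0 are not drawn). HNF4A was highest and NR4A3 lowest, with a mean of 0.0278 CPM per kb.

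Start-site sequences from RefSeq (GRCh38.p14) were found for 37 of the 41 receptors. They cover 250 bases before to 50 after each start and gave 81 windows for 32 of the expressed receptors. VDR, HNF4G, NR2F6 and NR4A2 had no entry. The receptor core site AGGTCA was searched on both strands, with its extended form AAGGTCA, which contains it, and the core of the cyclic AMP response element, TGACGT. The core site AGGTCA was found in 12 of the 81 windows (14.8%) and in 13.8% of all 35116 windows. Its extended form was in 5 of them (6.17%, against 3.92% of all) and TGACGT in 6 (7.41%, against 7.98%). Sequences are shown for 4 receptors described below, chosen after the matches and results were known because each changed and had a match upstream of a start. The motif is in capitals and the strand is that of the gene. A match is letters only and shows no binding.
ESRRG (AAGGTCA, minus strand, chr1:217077027-217077073): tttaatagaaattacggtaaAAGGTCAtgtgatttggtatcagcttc
PPARG (AGGTCA, plus strand, chr3:12287131-12287209): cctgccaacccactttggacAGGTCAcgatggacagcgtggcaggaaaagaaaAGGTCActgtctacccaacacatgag
NR4A3 (TGACGT, plus strand, chr9:99821756-99821884): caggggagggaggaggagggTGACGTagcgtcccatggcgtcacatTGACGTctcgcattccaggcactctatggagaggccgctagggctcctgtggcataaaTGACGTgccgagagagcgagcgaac
NR6A1 (TGACGT on both strands, minus strand, chr9:124771312-124771355): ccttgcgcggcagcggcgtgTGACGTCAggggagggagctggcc

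The ESRRG stretch holds 1 match and the PPARG stretch 2, each before 1 of several listed starts of its gene. The NR4A3 stretch holds 3 matches in 129 bases, a number that 97 of all 35116 windows reached (0.276%), and its last 30 bases lie in an exon of another annotated transcript. In NR6A1 the matches of both strands overlap and form the full palindrome of the cyclic AMP response element.

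Exposure to FWctl lowered more receptors than it raised. Among the 36 expressed receptors, 13 were lower and 3 were higher than under PBS at an adjusted p under 0.05 (edgeR's quasi-likelihood test), or 44.4% called. Over all 20373 genes tested, 46.4% were called in this comparison, with 24.3% higher and 22.1% lower, so the total share of receptors called was near that of all genes. The median log2 fold change was -0.19 over the receptors and 0.018 over all genes. The 13 lower receptors were ESRRG, PPARA, PPARG, NR4A1, VDR, RXRA, RARG, NR1I3, NR1H3, NR2F1, NR2F2, NR2F6 and NR5A2, and the 3 higher ones were ESRRA, NR1D2 and NR1H2. FWctl replicate 1 lay between the PBS and FWctl means for 13 of the 16 called, the exceptions being NR1D2, NR1H3 and NR1I3. Over all 22 samples 16 receptors were called, without NR1I3 and with THRB. Within the libraries of higher ribosomal DNA share, fitted without their ATB library, 16 were called, without NR1H3 and with NR6A1. Within those of lower share, with 2 PBS and 2 FWctl libraries, 14 were called, without NR1I3, RARG, NR1H2 and NR2F1 and with HNF4G and RXRB. The summed receptor level was 1207 to 1329 CPM under PBS and 1052 to 1204 CPM under FWctl, with FWctl replicate 1 at 1153 CPM.

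Against PBS, FWatb lowered 6 of the 36 (THRB, PPARA, NR1H3, NR1D2, NR3C1 and ESRRG) and raised none, or 16.7% called, against 9.99% of all genes (6.04% higher and 3.95% lower). The median over the receptors was -0.087 on the log2 scale and that over all genes 0.00026. Within the libraries of higher ribosomal DNA share, and over all 22 samples, 3 receptors were called. Against FWctl, FWatb raised 11 receptors and lowered 5, or 44.4% called, where 48.8% of all genes were called, 23.4% higher and 25.4% lower, and within the libraries of higher ribosomal DNA share 17 receptors were called. With an absolute log2 fold change above 1 as a further condition, 3 receptors (PPARG, ESRRG and NR4A1) remained, against 12.7% of all genes. ATB raised NR4A3 alone, or 2.78% of the receptors, where 0.285% of all genes were called (0.255% higher and 0.0295% lower). NR4A3 met the filter through the ATB samples, as outside ATB only FWctl replicate 2 and FWatb replicate 1 exceeded a count of 5. It was thus tested because of the group where it was high, so these shares are not read as a receptor result. With the library set as a covariate NR4A3 was called too, at 2.34 on the log2 scale (edgeR adjusted p = 0.0403). Within the libraries of lower ribosomal DNA share (2 PBS and 3 ATB) NR4A3 was not called, at 2.34 (adjusted p = 0.143), and NR2F2 was, at 0.44 (adjusted p = 0.0452). Only 1 ATB library was in the other set.

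The comparisons with PBS share the PBS samples, and FWctl against PBS shares the FWctl samples with FWatb against FWctl, so opposite signs in the latter pair are not independent of each other. Side by side, 9 of the 13 receptors lower under FWctl than PBS were higher under FWatb than FWctl, and all 3 higher ones were lower. The matching share over all genes was not counted, so this reversal is not read as a trait of the receptors. HNF4A, NR3C1, NR6A1 and THRB were called between FWatb and FWctl but not between FWctl and PBS. No comparison called the other 15 expressed receptors, which were THRA, RARA, RARB, NR1I2, PPARD, NR1D1, RORA, HNF4G, RXRB, NR2C1, NR2C2, ESR1, ESR2, NR3C2 and NR4A2.

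**Figure D2:**
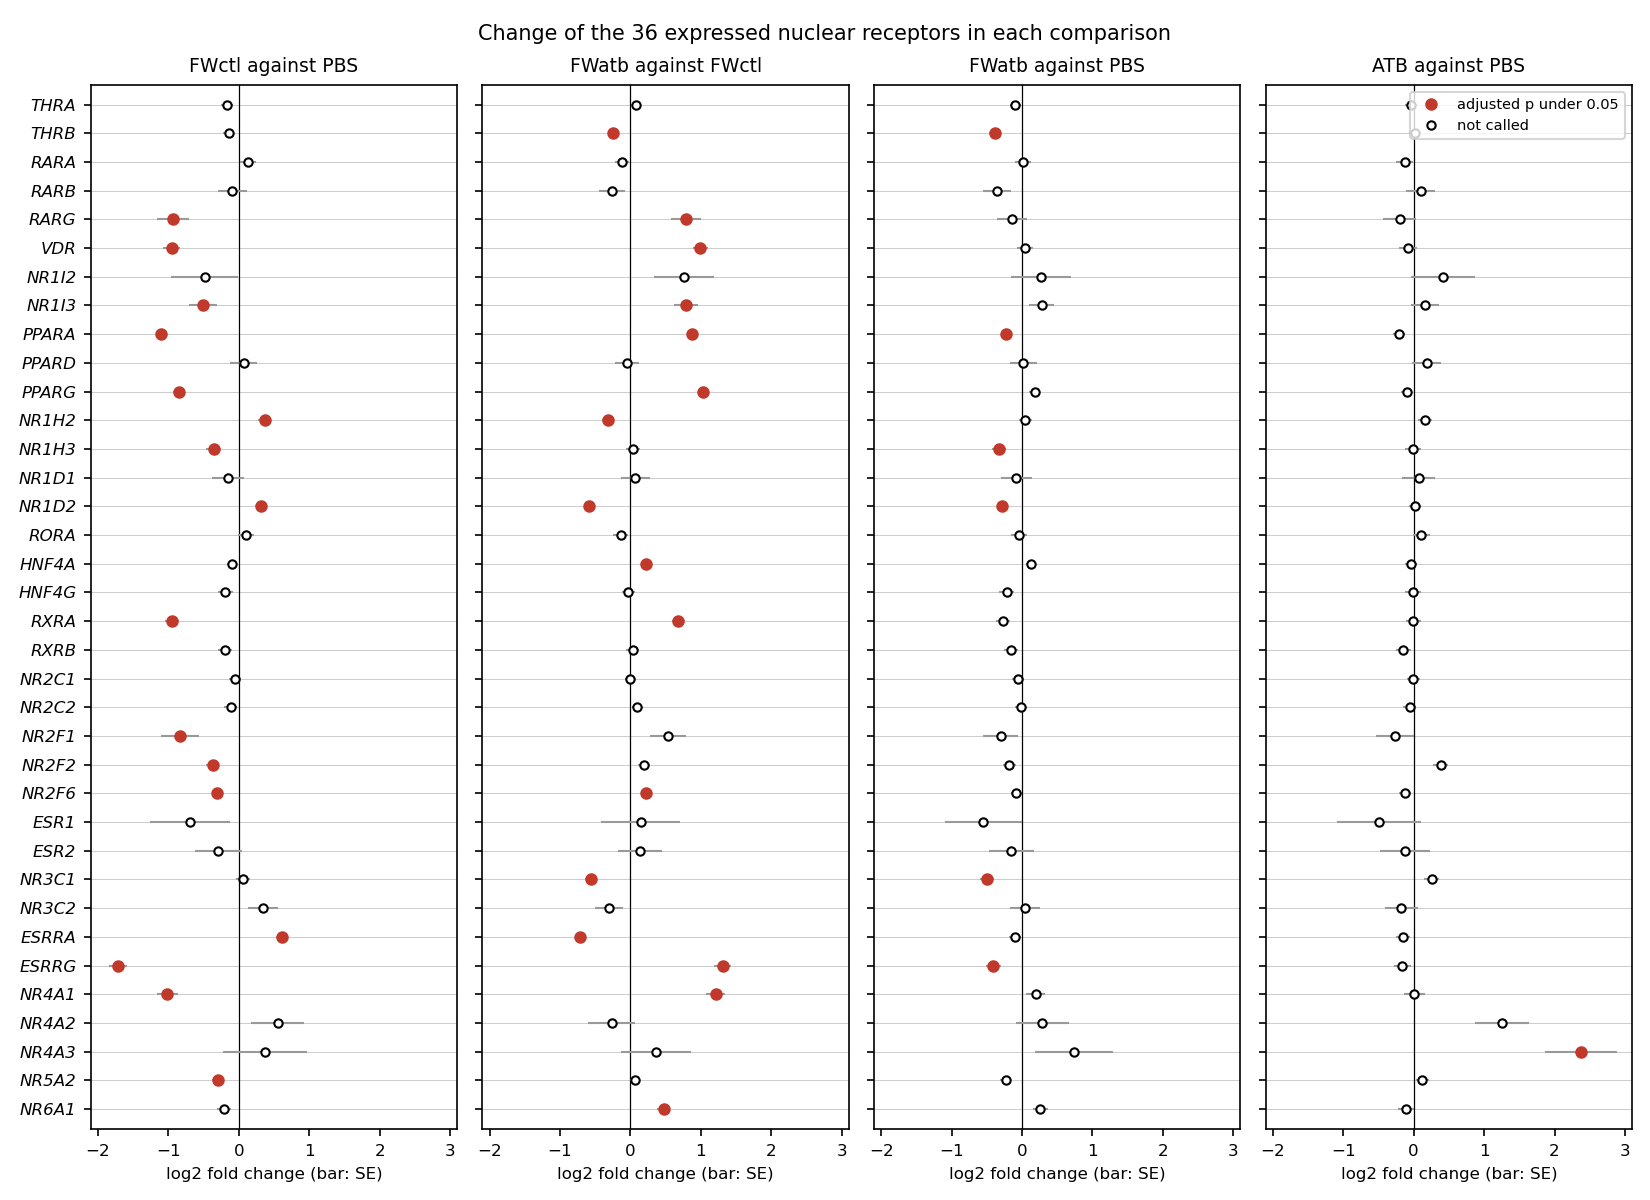
Log2 fold change of the 36 expressed receptors in each comparison, with the standard error as a bar and filled points for an adjusted p under 0.05. Most filled points are in the 2 panels that involve FWctl, ESRRG lies lowest under FWctl at -1.72, and NR4A3 is the only filled point under ATB.

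Markers of other states moved in the same comparisons. The summed level of 5 differentiated enterocyte markers was 86.6 to 102 CPM under PBS, 60.9 to 66.4 under FWctl, 65.4 to 86.1 under FWatb and 109 to 135 CPM under ATB. Between FWctl and PBS 3 of these 5 fell and 1, ALPI, rose. The summed level of 6 markers of leukocytes, fibroblasts and endothelium was 13.6 to 14.3 CPM under PBS, 6.34 to 9.26 under FWctl, 12.6 to 16.3 under FWatb and 14.6 to 22.8 CPM under ATB, with 1 of 5 tested markers higher and 2 lower under FWctl. Their part in the receptor results was not tested.

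Among the fatty acid receptors, PPARA and PPARG fell under FWctl and PPARD did not pass the test. PPARA (ENSG00000186951, chr22:46150521-46243755), which drives fatty acid oxidation and ketogenesis, was at 84.2, 98.7, 98.0 and 84.2 CPM in the PBS samples. Under FWctl it ranged from 38.1 to 46.4 CPM with a median of 43.2, under FWatb from 73.2 to 87.1 CPM with a median of 76.6, and under ATB it was at 73.3, 85.9, 74.9 and 83.0 CPM. FWctl replicate 1 was at 58.0 CPM. Every FWctl sample lay below every sample of the other groups, and replicate 1 lay between. The log2 fold change between FWctl and PBS was -1.11 ± 0.075 (SE, edgeR adjusted p = 5.32e-16), that is 0.464 times the PBS level, and between FWatb and FWctl 0.88 ± 0.067 (SE, edgeR adjusted p = 1.8e-14). Under FWatb PPARA was also lower than under PBS, with a log2 fold change of -0.23 ± 0.071 (SE, edgeR adjusted p = 0.031) and overlapping samples. That last call was lost in 8 of 30 alternatives, among them the fits without PBS replicate 2, PBS replicate 3, FWatb replicate 1 or FWatb replicate 8, where the adjusted p was at most 0.202.

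PPARG (ENSG00000132170, chr3:12287368-12434356), the receptor best known for lipid storage and also abundant in colonic epithelium, was at 52.9, 61.3, 56.3 and 58.9 CPM under PBS. It ranged from 28.9 to 36.4 CPM with a median of 31.3 under FWctl and from 60.8 to 70.9 CPM with a median of 62.9 under FWatb, and was at 48.9, 49.3, 56.2 and 58.8 CPM under ATB. FWctl replicate 1 was at 48.9 CPM, level with the lowest ATB sample. The FWctl samples did not overlap with those of any other group, whereas FWatb and PBS overlapped. PPARG fell under FWctl by 0.85 ± 0.077 (SE, edgeR adjusted p = 1.97e-12) on the log2 scale and was higher under FWatb than under FWctl by 1.03 ± 0.068 (SE, edgeR adjusted p = 2.09e-16). FWatb and PBS differed by 0.18 ± 0.073 (SE, edgeR adjusted p = 0.117). PPARD, the third and broadly expressed member, had means of 3.44 ± 0.801 CPM under PBS and 3.44 ± 0.857 CPM under FWctl (SD, n = 4 and 6), a log2 difference of 0.07 ± 0.19 (SE, edgeR adjusted p = 0.808).

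The liver X receptors, which sense oxysterols and control cholesterol efflux, moved in opposite directions under FWctl. NR1H2 (LXRβ) was at 16.0 ± 1.28 CPM under PBS and 20.6 ± 1.95 CPM under FWctl and rose by 0.37 ± 0.093 (SE, edgeR adjusted p = 0.00113), a call lost within the libraries of lower ribosomal DNA share, at 0.31 (adjusted p = 0.0541). Between FWatb and FWctl it fell, with a log2 fold change of -0.32 ± 0.081 (SE, edgeR adjusted p = 0.00108). NR1H3 (LXRα) was at 31.2 ± 3.20 CPM under PBS, 24.6 ± 4.31 CPM under FWctl and 25.1 ± 2.99 CPM under FWatb. FWctl replicate 1, at 33.9 CPM, lay above the other FWctl samples and above the PBS mean. Against PBS the log2 fold changes were -0.36 ± 0.10 (SE, edgeR adjusted p = 0.00404) under FWctl and -0.32 ± 0.10 (SE, edgeR adjusted p = 0.032) under FWatb, both called lower, with overlapping groups in both. Within the libraries of higher ribosomal DNA share the FWctl call was lost, at -0.22 (adjusted p = 0.194), and the FWatb call was lost in 10 of 30 alternatives, 6 of which left out 1 library (PBS replicates 3 and 4 and FWatb replicates 1, 2, 3 and 8). NR1H2 shares 1182 bp of exon with NAPSA and NR1H3 shares 189 bp with ACP2, both on the opposite strand, and whether the counting used strand is not given in the sources used here.

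Of the oestrogen-related receptors, which bind the extended core site shown above without a known hormone, ESRRG fell and ESRRA rose under FWctl. ESRRG (ENSG00000196482, chr1:216503246-217137755), a regulator of oxidative metabolism, was at 13.3, 14.3, 12.2 and 10.6 CPM in the PBS samples. It ranged from 2.66 to 4.56 CPM with a median of 3.58 under FWctl, where FWctl replicate 1 was at 6.41, and from 8.30 to 10.3 CPM with a median of 9.41 under FWatb, and was at 9.65, 11.8, 11.1 and 12.2 CPM under ATB. All FWctl samples were below all others, and all FWatb samples were below all PBS samples but overlapped with ATB. Under FWctl against PBS its log2 fold change was the lowest among the 36 receptors, at -1.72 ± 0.13 (SE, edgeR adjusted p = 8.53e-15) or 0.304 times the PBS level. Between FWatb and FWctl the change was 1.31 ± 0.12 (SE, edgeR adjusted p = 3.27e-12), and between FWatb and PBS -0.41 ± 0.11 (SE, edgeR adjusted p = 0.012). The last of these lost its call over all 22 samples, with library size alone and without PBS replicate 2 (adjusted p of 0.0501 to 0.0640).

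ESRRA, which works with PGC-1 coactivators on mitochondrial genes, was at 39.1 ± 3.97 CPM under PBS, 59.9 ± 8.49 CPM under FWctl, 36.7 ± 2.60 CPM under FWatb and 35.3 ± 1.09 CPM under ATB (SD, n = 4, 6, 7 and 4). The FWctl samples lay above all PBS, FWatb and ATB samples. It rose by 0.61 ± 0.087 (SE, edgeR adjusted p = 1.49e-07) under FWctl and was lower under FWatb than under FWctl, with a log2 fold change of -0.71 ± 0.076 (SE, edgeR adjusted p = 1.73e-10). FWctl replicate 1 was at 53.8 CPM, within the FWctl range. ESRRA shares 284 bp of exon with TRMT112 on the opposite strand.

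RXRA (ENSG00000186350, chr9:134317098-134440585), the common partner of the heterodimeric receptors, was at 52.3, 57.2, 63.6 and 49.7 CPM under PBS. Its FWctl samples ranged from 24.3 to 39.7 CPM with a median of 27.3 and its FWatb samples from 40.5 to 53.6 CPM with a median of 46.4, the ATB samples were at 54.0, 60.6, 48.9 and 59.2 CPM, and FWctl replicate 1 was at 38.2 CPM. All FWctl samples were below the samples of the other groups, the highest of them by little. RXRA fell by 0.95 ± 0.10 (SE, edgeR adjusted p = 1.12e-10) under FWctl and was higher under FWatb than FWctl by 0.68 ± 0.089 (SE, edgeR adjusted p = 2.29e-08). FWatb against PBS gave -0.27 ± 0.094 (SE, edgeR adjusted p = 0.0599), which passed the threshold in 10 of 30 alternatives.

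RXRB (ENSG00000204231, chr6:33193588-33200665), the second RXR partner, was at 16.4, 17.1, 19.1 and 16.8 CPM under PBS and 16.0, 15.3, 16.2 and 15.4 CPM under ATB. It ranged from 12.4 to 19.7 CPM with a median of 14.8 under FWctl and from 12.4 to 17.1 CPM with a median of 15.9 under FWatb, with FWctl replicate 1 at 16.4 CPM. The FWctl and FWatb samples overlapped with those of PBS, whereas the 4 ATB samples lay just below those of PBS. No comparison was called, with -0.19 ± 0.10 (SE, edgeR adjusted p = 0.11) for FWctl against PBS and 0.03 ± 0.089 (SE, edgeR adjusted p = 0.794) for FWatb against FWctl. The former passed the threshold in 5 of 32 alternatives, 4 of them without 1 library (FWctl replicate 7, FWatb replicate 4 or 6, or ATB replicate 2), with log2 fold changes from -0.33 to -0.22. RXRB shares 361 bp of exon with SLC39A7 on the opposite strand.

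VDR (ENSG00000111424, chr12:47841537-47943048), the receptor of the active form of vitamin D, was at 11.8, 14.8, 13.1 and 14.5 CPM under PBS and 13.0, 15.9, 11.8 and 11.5 CPM under ATB. It ranged from 5.19 to 8.60 CPM with a median of 6.89 under FWctl and from 12.3 to 16.0 CPM with a median of 13.6 under FWatb. FWctl replicate 1 was at 8.68 CPM. The FWctl samples did not overlap with any other group, while PBS, FWatb and ATB overlapped. VDR fell by 0.95 ± 0.12 (SE, edgeR adjusted p = 1.23e-08) under FWctl, to 0.517 times the PBS level, and FWatb exceeded FWctl by 0.99 ± 0.11 (SE, edgeR adjusted p = 3.62e-10).

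The xenobiotic receptors were low. NR1I3 (CAR, ENSG00000143257, chr1:161229666-161238244), which induces drug-metabolising enzymes and transporters, was at 3.64, 3.67, 3.42 and 2.56 CPM under PBS and 3.72, 3.67, 4.25 and 3.04 CPM under ATB. It ranged from 1.25 to 2.69 CPM with a median of 2.45 under FWctl, with counts of 11 to 46, and from 2.74 to 5.25 CPM with a median of 4.06 under FWatb. FWctl replicate 1, at 4.27 CPM, was above all PBS samples and far from the other FWctl samples. FWctl and PBS overlapped, while FWctl and FWatb did not. The log2 fold change under FWctl was -0.51 ± 0.19 (SE, edgeR adjusted p = 0.0289) and the difference between FWatb and FWctl 0.79 ± 0.17 (SE, edgeR adjusted p = 0.00017). The first of these calls was lost without PBS replicate 1 at -0.50 (adjusted p = 0.0505), without FWctl replicate 4 at -0.44 (adjusted p = 0.0569), within the libraries of lower ribosomal DNA share at -0.31 (adjusted p = 0.38) and over all 22 samples at -0.36 (adjusted p = 0.168), and the second in none of 31 alternatives. Of its 3247 bp of exon, 663 bp overlap with TOMM40L on the opposite strand.

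NR1I2 (PXR, ENSG00000144852, chr3:119780484-119818487), the receptor of rifampicin and many other drugs, had 2 to 19 counts per library. It was at 0.316, 0.396, 0.405 and 0.694 CPM under PBS and 1.05, 0.612, 0.459 and 0.38 CPM under ATB. It ranged from 0.168 to 0.807 CPM with a median of 0.317 under FWctl and from 0.340 to 0.959 CPM with a median of 0.497 under FWatb, with FWctl replicate 1 at 0.777 CPM. All groups overlapped and no comparison was called with all of the 21 samples. FWctl against PBS gave -0.48 ± 0.48 (SE, edgeR adjusted p = 0.436) and FWatb against FWctl 0.76 ± 0.43 (SE, edgeR adjusted p = 0.146). The former was 0.39 within the libraries of higher ribosomal DNA share and -1.71 within those of lower share, neither called, and the latter was called without FWctl replicate 6, at 1.10 (adjusted p = 0.0417).

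**Figure D3:**
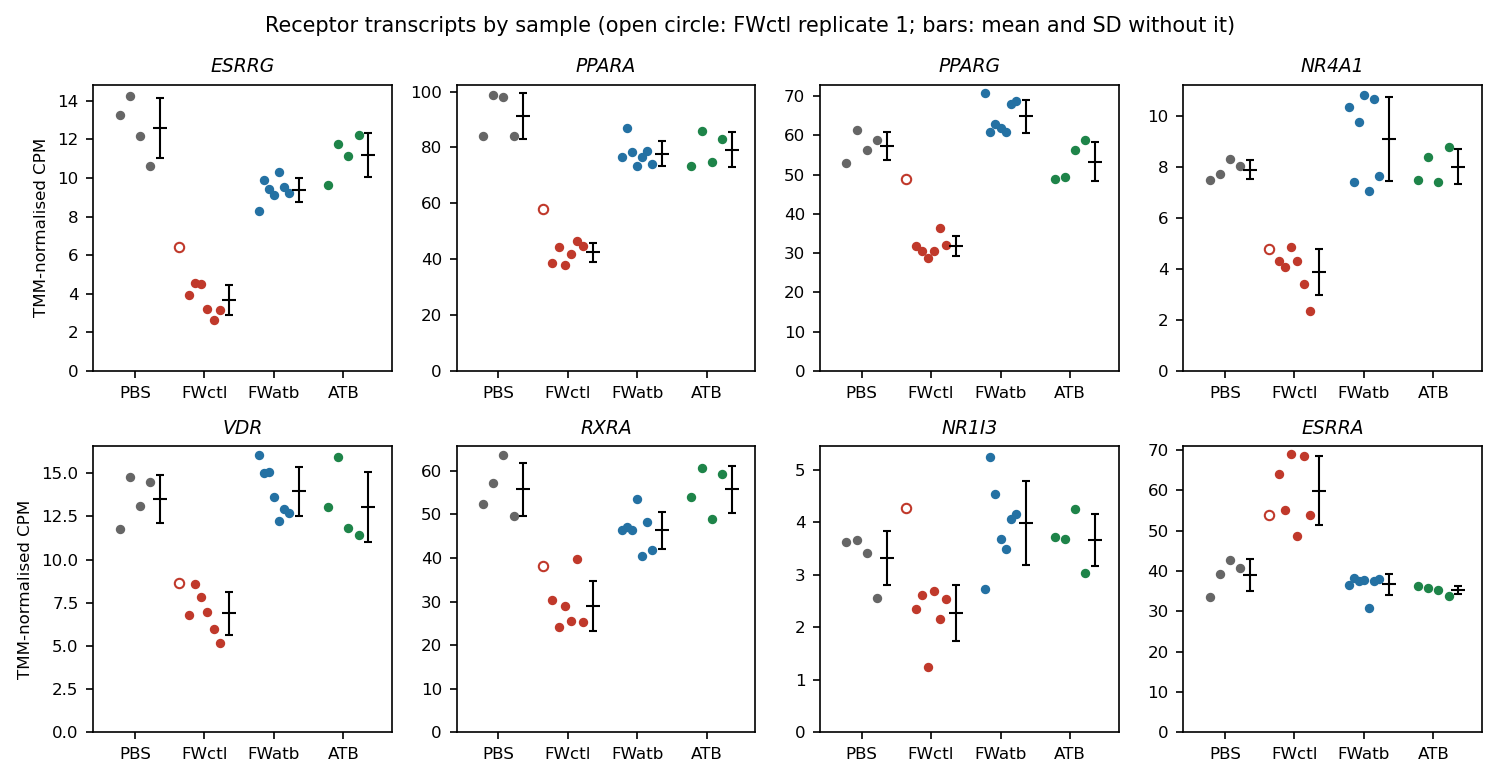
CPM of 8 receptors in every sample of the 4 groups (points), with FWctl replicate 1 as an open circle and the mean and SD of the other samples as a bar. ESRRG, PPARA, PPARG, NR4A1, VDR, RXRA and NR1I3 are lower, and ESRRA higher, in the 6 FWctl samples than under FWatb, and the open circle often lies between FWctl and PBS.

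The retinoic acid and thyroid hormone receptors each had 1 member called. RARG was at 3.18 ± 0.615 CPM under PBS, 1.59 ± 0.300 CPM under FWctl and 2.91 ± 1.04 CPM under FWatb. It fell by 0.94 ± 0.23 (SE, edgeR adjusted p = 0.000837) under FWctl, without overlap, and was higher under FWatb than FWctl by 0.79 ± 0.21 (SE, edgeR adjusted p = 0.00204). The former call was lost within the libraries of lower ribosomal DNA share, at -0.66 (adjusted p = 0.055). RARA and RARB were not called in any comparison, with log2 fold changes of 0.13 and -0.09 under FWctl. THRB, the thyroid hormone receptor with the higher level per kb, was at 71.4 ± 8.43 CPM under PBS, 64.7 ± 6.89 CPM under FWctl, 54.5 ± 3.40 CPM under FWatb and 72.2 ± 0.929 CPM under ATB. It fell by 0.39 ± 0.076 (SE, edgeR adjusted p = 0.000574) under FWatb against PBS. FWatb against FWctl gave -0.24 ± 0.07 (SE, edgeR adjusted p = 0.00326), a call lost over all 22 samples and with library size alone. THRA was not called, with -0.17 under FWctl (edgeR adjusted p = 0.0894), passed the threshold in 11 of 32 alternatives, and shares 473 bp of exon with NR1D1, encoded on the opposite strand.

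In the NR4A family, immediate early factors that act through their level rather than a ligand, NR4A1 and NR4A3 changed under different exposures. NR4A1 (ENSG00000123358, chr12:52022832-52059507) was at 7.51, 7.73, 8.34 and 8.06 CPM under PBS and 7.49, 8.42, 7.41 and 8.80 CPM under ATB. It ranged from 2.34 to 4.87 CPM with a median of 4.20 under FWctl and from 7.06 to 10.8 CPM with a median of 9.76 under FWatb, with FWctl replicate 1 at 4.79 CPM. The FWctl samples did not overlap with any other group. NR4A1 fell by 1.01 ± 0.15 (SE, edgeR adjusted p = 2.72e-07) under FWctl, and FWatb exceeded FWctl by 1.21 ± 0.13 (SE, edgeR adjusted p = 4.62e-10). ATB and PBS gave 0.0098 ± 0.15 (SE, edgeR adjusted p = 0.996). NR4A1 shares 754 bp of exon with the antisense gene NR4A1AS.

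NR4A3 (ENSG00000119508, chr9:99821855-99866891), whose start window holds the 3 TGACGT matches shown above, was near the limit of detection. Its counts were 4, 0, 3 and 4 under PBS and 21, 6, 19 and 15 under ATB, and 0 to 7 in the FWctl and FWatb samples. It met the filter of 3 or more samples only with the ATB samples included. In CPM it was at 0.316, 0, 0.174 and 0.214 under PBS and 1.16, 0.919, 1.09 and 0.814 under ATB. It ranged from 0 to 0.393 CPM with a median of 0.266 under FWctl and from 0.174 to 0.660 CPM with a median of 0.313 under FWatb, with FWctl replicate 1 at 0.194 CPM. Every ATB sample lay above every sample of the other groups. The fitted log2 fold change of ATB against PBS was 2.38 ± 0.51 (SE, edgeR adjusted p = 0.0219), and FWctl against PBS gave 0.38 ± 0.59 (SE, edgeR adjusted p = 0.643). Of 28 alternatives with an adjusted p, 10 lost the ATB call, with adjusted p from 0.0528 to 0.197. They were the fits over all 22 samples, with library size alone, within the libraries of lower ribosomal DNA share, and without PBS replicate 1, 2, 3 or 4 or ATB replicate 1, 3 or 4, with log2 fold changes from 2.08 to 2.66. NR4A2 was at 0.611 ± 0.353 CPM under PBS and 1.69 ± 0.630 CPM under ATB, without overlap, and its log2 fold change of 1.25 ± 0.38 (SE, edgeR adjusted p = 0.169) did not pass the test.

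**Figure D4:**
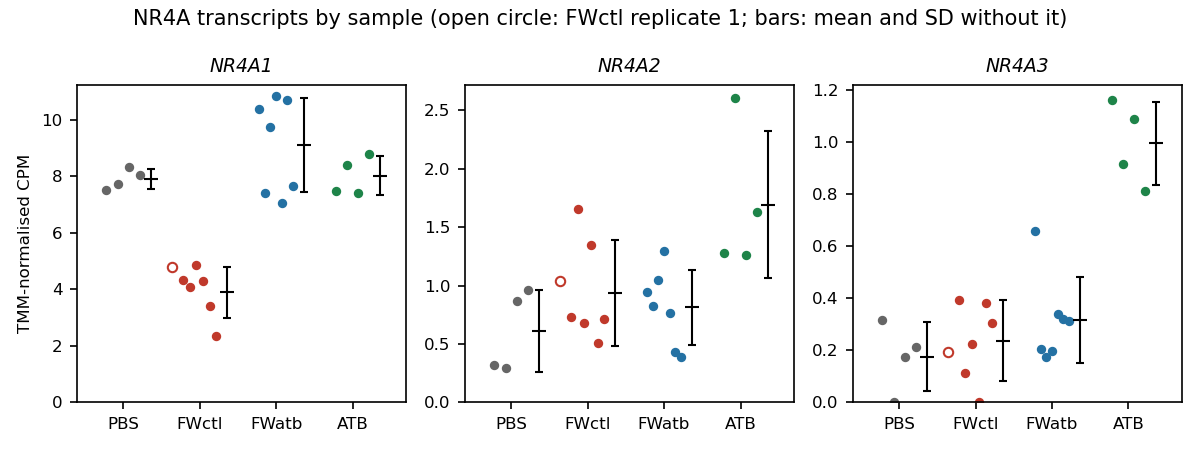
CPM of NR4A1, NR4A2 and NR4A3 in every sample (points), with FWctl replicate 1 as an open circle and the mean and SD of the other samples as a bar. NR4A1 is lower in the 6 FWctl samples, and NR4A3 is higher in the 4 ATB samples, which hold 6 to 21 counts each.

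Of the NR2 group, the COUP-TF receptors fell under FWctl and the testicular receptors did not pass the test. NR2F1 was at 3.05 ± 1.22 CPM under PBS and 1.72 ± 0.719 CPM under FWctl, with a change of -0.84 ± 0.27 (SE, edgeR adjusted p = 0.0092), a call lost within the libraries of lower ribosomal DNA share, at -0.70 (adjusted p = 0.114). NR2F2, a developmental repressor, was at 44.7 ± 3.88 CPM, 34.7 ± 3.12 CPM, 39.3 ± 6.85 CPM and 58.3 ± 2.98 CPM under PBS, FWctl, FWatb and ATB. It fell by 0.37 ± 0.094 (SE, edgeR adjusted p = 0.00111) under FWctl. Under ATB all 4 samples were above the PBS samples, but the log2 fold change of 0.38 ± 0.10 (SE, edgeR adjusted p = 0.0888) missed the threshold and passed it in 5 of 30 alternatives. FWatb against FWctl, at 0.19 ± 0.084 (SE, edgeR adjusted p = 0.0592), passed it in 19 of 31, among them the fit with a replicate block at 0.24 (adjusted p = 0.00289). NR2F6 fell by 0.30 ± 0.082 (SE, edgeR adjusted p = 0.00208) under FWctl and was higher under FWatb than FWctl by 0.22 ± 0.072 (SE, edgeR adjusted p = 0.00886). NR2C1 and NR2C2 had log2 fold changes of -0.05 and -0.12 under FWctl, and 7157 of 11822 bp of NR2C2 exon overlap with MRPS25 on the opposite strand.

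Of the receptors tied to liver and gut identity, NR5A2 fell under FWctl and the HNF4 receptors did not pass that test. HNF4A was at 346 ± 14.7 CPM under PBS, 323 ± 39.5 CPM under FWctl, 378 ± 16.3 CPM under FWatb and 336 ± 21.9 CPM under ATB. FWctl against PBS gave -0.10 ± 0.077 (SE, edgeR adjusted p = 0.325), not a call, and FWatb exceeded FWctl by 0.23 ± 0.067 (SE, edgeR adjusted p = 0.00443), with overlap. HNF4G was not called, at -0.19 under FWctl, and passed the threshold in 5 of 32 alternatives. NR5A2 was at 101 ± 8.55 CPM under PBS and 81.9 ± 11 CPM under FWctl and fell by 0.30 ± 0.084 (SE, edgeR adjusted p = 0.00337), while FWatb against PBS gave -0.23 ± 0.081 (SE, edgeR adjusted p = 0.0601) and passed the threshold in 12 of 30 alternatives. NR6A1, the germ cell nuclear factor whose start window holds the palindrome shown above, was higher under FWatb, at 32.2 ± 3.22 CPM, than under FWctl, at 23.1 ± 2.77 CPM, without overlap and with a log2 fold change of 0.47 ± 0.092 (SE, edgeR adjusted p = 3.11e-05). FWctl against PBS, at -0.21 ± 0.10 (SE, edgeR adjusted p = 0.0947), passed the threshold in 11 of 32 alternatives.

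Among steroid receptors, only the glucocorticoid receptor NR3C1 was called. It was at 43.6 ± 2.91 CPM under PBS, 45.6 ± 5.39 CPM under FWctl, 30.8 ± 5.04 CPM under FWatb and 51.4 ± 7.76 CPM under ATB. All FWatb samples were below all PBS and all FWctl samples. NR3C1 was lower under FWatb than PBS, with a log2 fold change of -0.50 ± 0.10 (SE, edgeR adjusted p = 0.000551), and than FWctl, at -0.56 ± 0.09 (SE, edgeR adjusted p = 1.23e-06), and both calls were kept in all alternatives. The mineralocorticoid receptor NR3C2 gave 0.34 ± 0.22 (SE, edgeR adjusted p = 0.199) under FWctl. The oestrogen receptors ESR1 and ESR2 had at most 7 and 25 counts per library and were not called.

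Of the clock receptors, which repress or activate the same response elements, the repressor NR1D2 rose under FWctl and fell under FWatb. It was at 48.7 ± 3.32 CPM under PBS, 60.3 ± 2.74 CPM under FWctl and 40.0 ± 4.17 CPM under FWatb. FWctl replicate 1, at 44.2 CPM, lay below all PBS samples, opposite to the called rise. The log2 fold changes were 0.31 ± 0.077 (SE, edgeR adjusted p = 0.000891) for FWctl against PBS, -0.28 ± 0.075 (SE, edgeR adjusted p = 0.0102) for FWatb against PBS and -0.59 ± 0.067 (SE, edgeR adjusted p = 8.17e-10) for FWatb against FWctl. The second was lost with library size alone, within the libraries of higher ribosomal DNA share and without PBS replicate 2. NR1D1 and the activator RORA were not called, at -0.15 and 0.10 under FWctl.

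Genes around the receptors were counted on lists of coregulators, ligand metabolism and known targets, beside the shares over all genes given above. Of 19 tested coregulators, 7 rose and 3 fell under FWctl against PBS, with a median log2 fold change of 0.082. PPRC1, of the PGC-1 family, rose by 0.70 ± 0.11 (SE, edgeR adjusted p = 1.74e-06) and the deacetylase SIRT1 by 0.63 ± 0.079 (SE, edgeR adjusted p = 8.79e-09), while the coactivator NCOA3 fell by 0.48 ± 0.066 (SE, edgeR adjusted p = 5.83e-08). Another PGC-1 member, PPARGC1B, fell under FWctl by 0.29 ± 0.10 (SE, edgeR adjusted p = 0.0162) and was higher under FWatb than under FWctl by 0.89 ± 0.087 (SE, edgeR adjusted p = 1.84e-11). FWatb against FWctl raised 3 and lowered 7 coregulators, and ATB called 0 of the 19. For the lists that follow, median log2 fold changes under FWctl against PBS were 0.10 for ligand metabolism, -0.59 for PPAR targets, -0.13 for liver X receptor targets, -0.15 for HNF4 targets and -0.077 for targets of CAR and PXR. They were -0.45 for VDR targets, -0.042 for retinoic acid receptor targets, 0.37 for targets of the oestrogen-related receptors, 0.016 for steroid receptor targets and 0.24 for targets of the clock receptors, beside 0.018 over all genes.

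Of 15 tested genes of ligand metabolism, 5 rose and 5 fell under FWctl. The falls were largest for RBP2, which carries retinol in enterocytes, from 101 ± 13.1 CPM to 31.5 ± 7.74 CPM at a log2 fold change of -1.70 ± 0.13 (SE, edgeR adjusted p = 9.46e-15), and for the thyroid hormone deiodinase DIO1, from 28.2 ± 3.04 CPM to 10.1 ± 1.55 CPM at -1.49 ± 0.11 (SE, edgeR adjusted p = 6.97e-15). CRABP2, which delivers retinoic acid to its receptors, fell by 1.05 ± 0.12 (SE, edgeR adjusted p = 1.36e-09). Of the retinal dehydrogenases, which make retinoic acid, ALDH1A1 had 1646 to 5983 counts per library and was not called, at 0.10 (edgeR adjusted p = 0.345). ALDH1A2, with 0 to 21 counts per library, and ALDH1A3, with 2 to 31, rose by 1.48 and 1.20 on the log2 scale (edgeR adjusted p = 0.0145 and 0.00258). RDH10, which makes retinal, rose by 0.41 ± 0.077 (SE, edgeR adjusted p = 2.36e-05). The retinal reductase DHRS3 rose by 0.46 ± 0.078 (SE, edgeR adjusted p = 4.23e-06). Against FWctl, FWatb raised 6 and lowered 5 genes of the list.

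All 8 tested PPAR targets were called under FWctl, 3 higher and 5 lower. ANGPTL4, an inhibitor of lipoprotein lipase, and the transcription factor CREB3L3 fell, with log2 fold changes of -1.30 and -1.28 (edgeR adjusted p = 0.00295 and 1.83e-12). In contrast, the lipid droplet gene PLIN2 rose by 1.06 ± 0.10 (SE, edgeR adjusted p = 6.07e-12), the dehydrogenase ACADM by 0.97 ± 0.078 (SE, edgeR adjusted p = 8.68e-14) and the carnitine transferase CPT1A by 0.44 ± 0.10 (SE, edgeR adjusted p = 0.00032). The targets of one receptor class thus did not share a direction. FWatb against FWctl raised 3 and lowered 3 of them.

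Of 6 tested liver X receptor targets, 2 rose and 2 fell under FWctl. The cholesterol efflux pump ABCA1 fell by 1.73 ± 0.091 (SE, edgeR adjusted p = 1.94e-19) and the acyltransferase LPCAT3 fell by 0.66 ± 0.092 (SE, edgeR adjusted p = 8.56e-08), whereas SREBF1, which drives lipid synthesis, rose by 0.98 ± 0.095 (SE, edgeR adjusted p = 1.59e-11) and SMPDL3A by 0.55 ± 0.085 (SE, edgeR adjusted p = 8.25e-07). Of 7 tested HNF4 targets, 3 fell and 2 rose, while HNF4A itself was not called. MTTP, needed for lipoprotein assembly, fell from 30.1 ± 7.36 CPM to 2.43 ± 0.860 CPM, a log2 fold change of -3.64 ± 0.18 (SE, edgeR adjusted p = 2.71e-20). APOA1 fell by 2.49 ± 0.11 (SE, edgeR adjusted p = 1.7e-22) and SERPINA1 fell by 0.90 ± 0.087 (SE, edgeR adjusted p = 1.71e-11). APOC3, a lipoprotein component, rose by 0.32 ± 0.091 (SE, edgeR adjusted p = 0.00341). It was also the only gene of this list called under ATB, at 0.45 ± 0.10 (SE, edgeR adjusted p = 0.0304).

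All but 1 of the 6 tested targets of CAR and PXR were called under FWctl, 2 higher and 3 lower, and all 6 were called between FWatb and FWctl, 4 higher and 2 lower. CYP2B6, a monooxygenase induced by CAR, rose from 0.351 ± 0.140 CPM to 1.69 ± 0.580 CPM under FWctl, a log2 fold change of 2.25 ± 0.38 (SE, edgeR adjusted p = 4.01e-06). The sulphotransferase SULT2A1 fell by 0.83 ± 0.12 (SE, edgeR adjusted p = 9.44e-08) and the haem synthesis enzyme ALAS1 fell by 0.73 ± 0.089 (SE, edgeR adjusted p = 6.17e-09). The efflux transporter ABCB1 fell by 0.38 ± 0.091 (SE, edgeR adjusted p = 0.000614) under FWctl and exceeded PBS under FWatb by 0.67 ± 0.089 (SE, edgeR adjusted p = 1.39e-06). FWctl replicate 1, outside the test, went the other way, with 2600 ABCB1 counts in a library of 15604065. The PBS samples had 925 to 2022 counts in libraries of 10335253 to 18449825. Scaled to library size, FWctl replicate 6 lay within the PBS range. UGT1A1 rose by 0.55 ± 0.22 (SE, edgeR adjusted p = 0.0373), with exons shared among the UGT1A genes, so that its counts may be split.

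Of 3 tested VDR targets, S100G, the intestinal calcium-binding protein, was called lower under FWctl and higher under FWatb than FWctl (edgeR adjusted p = 3.25e-06 and 3.36e-07). Its counts were 4, 5, 13 and 19 under PBS, 0, 0, 1, 0, 1 and 0 under FWctl and 8, 5, 8, 15, 5, 10 and 7 under FWatb, so its fold change has little precision. Retinoic acid receptor targets were divided, with 2 of 6 tested higher under FWctl, TGM2 and DHRS3, and 2 lower, among them the retinol transporter STRA6. The log2 fold change was 0.66 ± 0.11 (SE, edgeR adjusted p = 2.88e-06) for TGM2 and -0.38 ± 0.11 (SE, edgeR adjusted p = 0.00415) for STRA6. Of 4 tested targets of the oestrogen-related receptors, the mitochondrial genes IDH3A, CYCS and ATP5F1B rose, by 0.83, 0.52 and 0.22, and SDHA fell by 0.35 (edgeR adjusted p = 8.79e-08, 7.35e-06, 0.048 and 0.00116).

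Of 8 tested glucocorticoid and mineralocorticoid targets, 3 rose and 1 fell under FWctl. The phosphatase DUSP1 rose by 1.27 ± 0.14 (SE, edgeR adjusted p = 1.98e-10) under FWctl and by 0.89 ± 0.15 (SE, edgeR adjusted p = 0.000964) under ATB, the sodium channel subunit SCNN1A by 0.77 ± 0.11 (SE, edgeR adjusted p = 1.09e-07) and the chaperone FKBP5 by 0.37 ± 0.11 (SE, edgeR adjusted p = 0.00495). Between FWatb and PBS, FKBP5 and the kinase SGK1 rose, by 0.50 ± 0.11 (SE, edgeR adjusted p = 0.00117) and 0.33 ± 0.074 (SE, edgeR adjusted p = 0.0021), and TSC22D3, a glucocorticoid-induced gene, fell by 0.78 ± 0.21 (SE, edgeR adjusted p = 0.0121). Of 5 genes listed as targets of the clock receptors, CLOCK and CRY1 rose under FWctl, by 0.30 and 0.30 (edgeR adjusted p = 0.00217 and 0.0225). BMAL1, of the same list, fell by 0.37 ± 0.09 (SE, edgeR adjusted p = 0.00081).

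**Figure D5:**
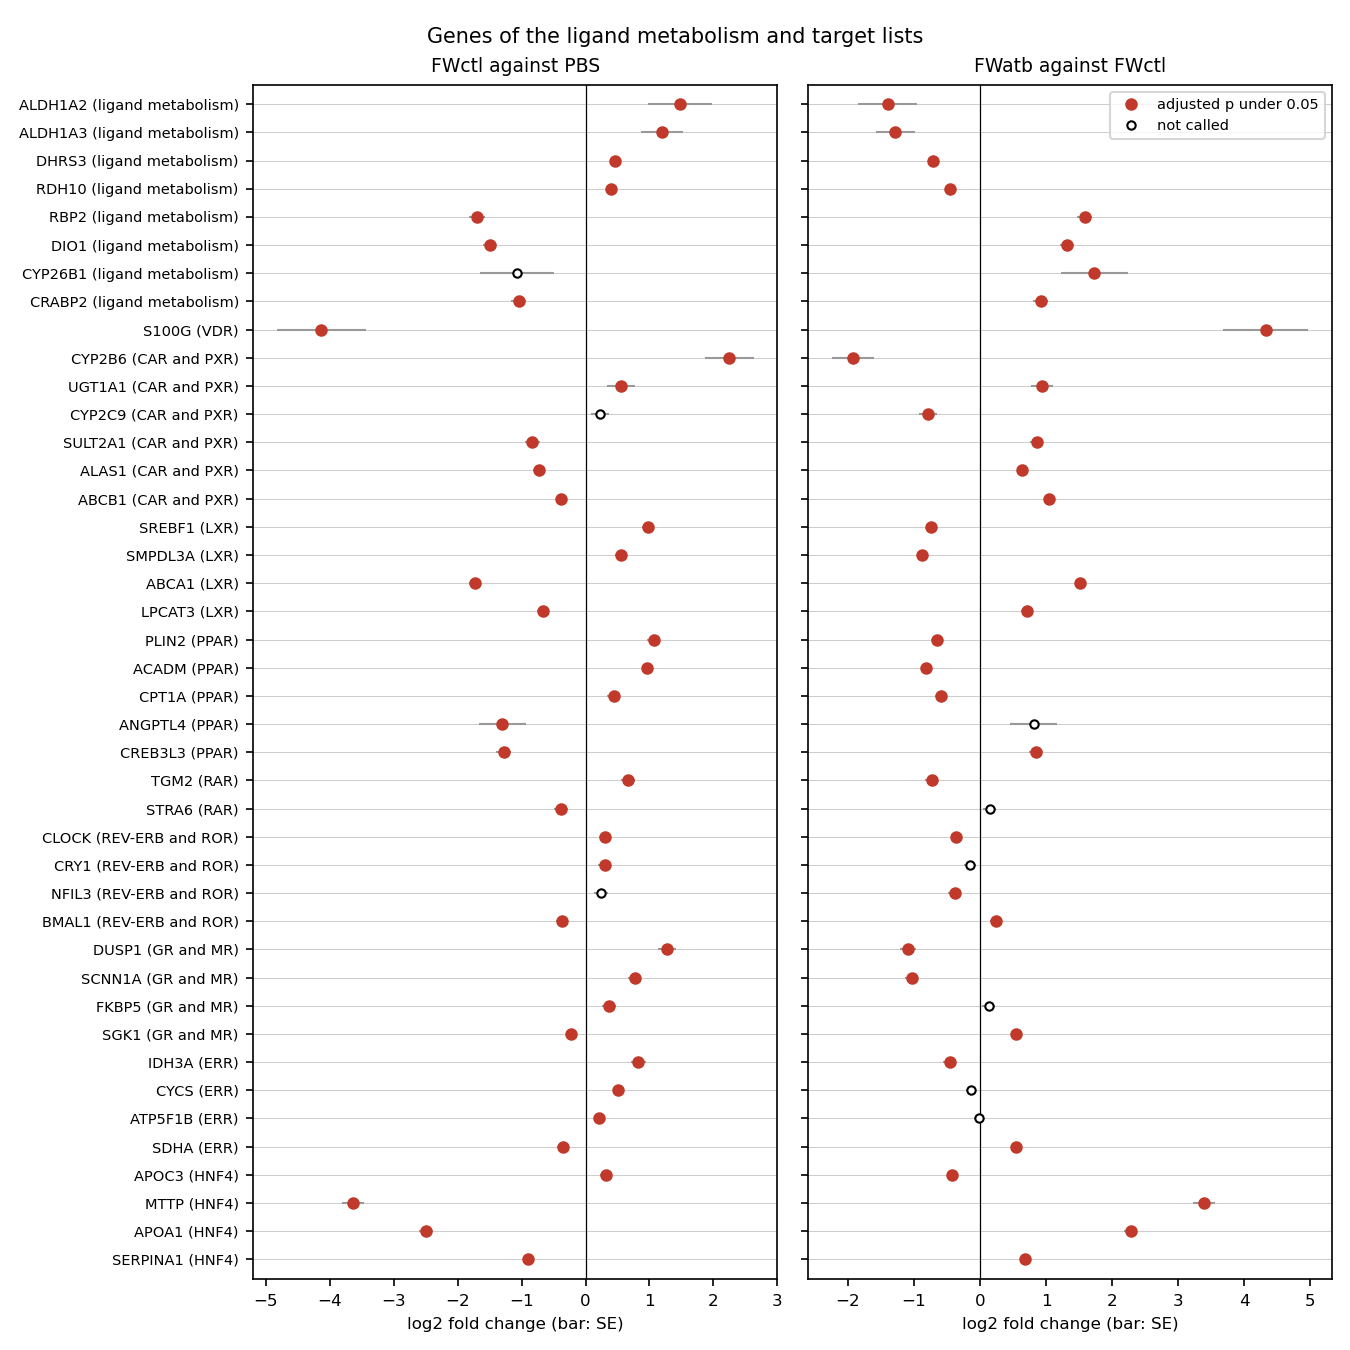
Log2 fold change of genes of ligand metabolism and of receptor targets, with the standard error as a bar and filled points for an adjusted p under 0.05, for FWctl against PBS and FWatb against FWctl. Filled points lie on both sides of 0 in both panels, with MTTP at -3.64 and CYP2B6 at 2.25 in the first panel, and the panels share the FWctl samples.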

How the data were processed

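RNA of Caco-2 cells was sequenced by the authors from stranded, ribosomal RNA-depleted libraries. Per the labels and methods, they trimmed reads with Trimmomatic 0.38, aligned them to GRCh38 with HISAT2 2.1.0 and assigned them to Ensembl genes by featureCounts (Subread 2.0.0). The deposited values are raw counts, neither normalised nor filtered, of 61487 genes in 22 samples. The strand setting is not given in the sources used here.

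Groups came from the sample labels. Symbols, exons and coordinates came from GENCODE release 44, in which 61369 gene identifiers were found. Counts were normalised by TMM and tested with edgeR 4.0.16 (R 4.3.3) by its quasi-likelihood test. A single model held the 4 groups and the 20373 genes that exceeded a count of 5 in at least 3 of 21 samples, with Benjamini-Hochberg adjustment over all of them. A call is an adjusted p under 0.05. CPM were scaled with factors from all 22 samples. The study left out 1 FWctl sample as an outlier without naming it, and replicate 1 was set apart here. The fits were tested on simulated data. All 54 pairs of replicates differed by more than sampling noise. Total counts of 7118302 to 18726967 limit precision for the lowest receptors.

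The receptors and the other lists were chosen with earlier results of these data known. Values per sample are given for receptors called with an absolute log2 fold change above 1 in any comparison and for NR1I2, NR1I3, VDR, RXRA and RXRB. Other lists name the called genes with the largest changes under FWctl, at most 4 in each direction, and ABCB1. Some genes that this rule would name are not reported here, and stay in the counts and medians of their lists. ALDH1A1 and TSC22D3 fall outside the rule and were named after their values were seen. Alternatives were all 22 samples, DESeq2 1.42.0, edgeR with DESeq2's size factors or with library size only, other filters, only the 2 groups compared, the library set, replicate blocks and each replicate left out. The fit within the libraries of lower ribosomal DNA share was added after seeing the data. Start windows came from RefSeq, and motifs were matched by exact letters.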

Additional observations from a re-analysis of the deposited data

Results flagged for a closer look

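In 4 of 40 groups of samples examined, 1 sample lay far from the rest of its group by Dixon's test, where about 2 are flagged by chance. PPARA in FWatb replicate 2 was at 87.1 CPM, with the other 6 FWatb samples at 73.2 to 78.8 CPM. NR4A3 in FWatb replicate 1 was at 0.660 CPM, from 7 counts, with the others at 0.174 to 0.340 CPM. NR1I3 in FWctl replicate 4 was at 1.25 CPM, from 11 counts, with the other FWctl samples at 2.16 to 2.69 CPM, and the call of NR1I3 between FWctl and PBS was lost without this sample. RXRB in FWatb replicate 6 was at 12.4 CPM, with the others at 15.7 to 17.1 CPM. The causes were not tested.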

How the results depend on the processing

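Of the receptors called, 11 of 16 between FWctl and PBS and 15 of 16 between FWatb and FWctl were called in all alternatives with an adjusted p, the exceptions being NR1H2, NR1H3, NR1I3, NR2F1 and RARG in the former and THRB in the latter. Between FWatb and PBS, 2 of 6 (THRB and NR3C1) were, and for ATB the single call was not. With each library left out, receptors called ranged from 15 to 21 (FWctl against PBS), 3 to 9 (FWatb against PBS), 0 to 2 (ATB against PBS) and 16 to 18 (FWatb against FWctl), and from 3 to 5 with the fold condition. PBS replicate 2 gave the lowest FWatb count and FWctl replicate 6 the 5. The ATB call was lost without any 1 PBS library or without ATB replicate 1, 3 or 4, and 2 receptors were called without FWatb replicate 6. Genes called over all genes ranged from 1334, without PBS replicate 2, to 2589 for FWatb against PBS and from 7, without PBS replicate 2 or ATB replicate 3, to 93, without ATB replicate 2, for ATB against PBS. Over all 22 samples, receptors called fell to 3 (FWatb against PBS) and 0 (ATB), and all genes to 1227 and 5. Within the libraries of higher ribosomal DNA share, receptors called were 3 for FWatb against PBS and 5 between FWatb and FWctl with the fold condition, and all genes 1127 for FWatb against PBS. Within those of lower share, a fit added after seeing the data, 23 genes were called for ATB against PBS (10 higher and 13 lower). FWctl against PBS had 14 receptors called there. Of the 5 exceptions above, NR1H2, NR2F1 and RARG were lost in this fit alone, and NR1I3 was lost in it too. For ATB against PBS, receptors called were 0 with library size alone, 2 without a filter, 0 with the stricter filter, which NR4A3 did not pass, and 2 with only both groups fitted, and all genes 14 with library size alone, 111 without a filter and 208 with DESeq2, which gave NR4A3 no adjusted p and called NR2F2. At an unadjusted p under 0.05, ATB against PBS had 1690 genes. With library size alone the calls between FWatb and FWctl divided into 5808 higher and 3933 lower, against 4762 and 5180 with TMM, and those between FWatb and PBS into 2090 and 411, against 1231 and 804, with medians over all genes of 0.093 and 0.076 on the log2 scale. Without a filter, ATB against PBS divided into 79 higher and 32 lower, against 52 and 6. The causes were not tested.

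The replicate block gave 17 receptors and 9756 genes between FWatb and FWctl (FW groups only) and 18 receptors and 9242 genes between FWctl and PBS (all groups), and moved no count by over 1.5 times. Same-numbered FWctl and FWatb samples had deviations from their group means with correlations of -0.0090 to 0.245. Their mean was 0.090, against -0.015 for differently numbered samples. For replicates 3, 4, 6 and 7 the same-numbered value was above the highest of the others, and for replicates 2 and 8 it was below. The labels do not say that a number marks a mouse, so the block stayed an alternative.

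Among the receptors given with values per sample, the only ones checked for this, directions turned for 5 uncalled values. NR4A1 under ATB was at -0.00347 with library size alone, -0.0148 with the library set as a covariate, -0.0668 within the libraries of lower ribosomal DNA share and -0.0623 to 0.0439 with 1 library left out. RXRA under ATB was at 0.0122 with the covariate and -0.0599 to 0.0598 with 1 library left out. VDR in FWatb against PBS ranged from -0.0320 to 0.0824 and NR1I2 under ATB from -0.0321 to 0.73 with 1 library left out, and NR1I2 between FWctl and PBS, at -0.48 with all of the 21 samples, was 0.39 within the libraries of higher ribosomal DNA share.

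Depth limits NR1I2, NR4A2, NR4A3, ESR1 and ESR2, the 5 receptors at or under a count of 5 in some sample, whose changes have standard errors of 0.31 to 0.59 on the log2 scale in the comparisons made.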
